A study of Mus musculus with 17 samples.

Results

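The 10 genes examined here encode the chains, chaperone, peptide editors and transactivator of the MHC class II presentation pathway. They are H2-Aa, H2-Ab1, H2-Eb1, Cd74, Ciita, H2-DMa, H2-DMb1, H2-DMb2, H2-Oa and H2-Ob. They were taken by symbol from the deposited table, and all 10 were found among its 21931 genes. Bulk RNA sequencing had been run on 17 distant tumors of the mouse colon cancer line MC38, which the labels give as wild type. In both groups C57BL/6J mice aged 6 to 8 weeks carried a subcutaneous implant of the line on each flank. In the cryoablation group (n = 8) 1 of the tumors was cryoablated on day 7 with 2 freezing cycles, whose length differs between the labels and the methods. The labels give the group sizes used here, and the paper's text gives them the other way round. The contralateral, unfrozen tumor was taken 5 days later. The control group (n = 9) is labelled for the same day, and whether its mice received a sham procedure is not given in the sources used here. The labels do not state that each tumor came from a separate mouse, so the p values measure the spread between these tumors.

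MHC class II molecules display peptides from endosomes to CD4 T cells. An alpha and a beta chain pair in the endoplasmic reticulum around the invariant chain, which blocks the groove and guides the complex to the endosome. There proteases trim the invariant chain, the editor DM exchanges its last fragment for antigenic peptide, and DO restrains DM. The transactivator CIITA switches the whole set on, either constitutively in dendritic cells and B cells or after interferon-gamma in macrophages and many tumor cells. It binds no DNA itself and is recruited by the RFX, CREB and NF-Y factors that sit on the X and Y boxes of class II promoters. C57BL/6 mice make only the I-A molecule (H2-Aa with H2-Ab1), because the partner of H2-Eb1, H2-Ea, is not expressed in this strain.

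Promoter sequence is shown for H2-Aa, H2-Eb1 and H2-Ob because these genes share the letters of that module while their levels in the tumors ranged from among the highest to among the lowest of the set. The sequences are from RefSeq (GRCm38.p6) and run from 150 to 11 bases before the annotated start, with GCAAC (part of the X box that RFX binds) and TGATTGG (the Y box that NF-Y binds) in capitals.
H2-Aa, chr17:34287834-34287973, minus strand: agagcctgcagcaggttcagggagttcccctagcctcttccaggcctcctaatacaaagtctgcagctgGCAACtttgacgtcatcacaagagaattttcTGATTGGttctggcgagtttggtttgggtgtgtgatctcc
H2-Eb1, chr17:34305717-34305856, plus strand: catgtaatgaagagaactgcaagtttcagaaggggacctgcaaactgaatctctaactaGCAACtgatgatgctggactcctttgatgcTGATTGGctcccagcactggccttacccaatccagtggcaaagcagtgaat
H2-Ob, chr17:34238755-34238894, plus strand: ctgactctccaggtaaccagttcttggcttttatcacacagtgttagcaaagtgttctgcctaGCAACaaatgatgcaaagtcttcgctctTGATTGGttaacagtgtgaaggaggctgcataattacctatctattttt
RefSeq windows were found for 7 of the 10 members, 8 windows in all, as H2-DMa has 2. In the 250 bases before the start, TGATTGG on either strand was in the windows of 6 of the 7 members, and in 7.23% of all 32851 promoters. It was in neither window of H2-DMa. Both of these windows lie inside the GRCm38 interval of that gene (chr17:34119541 to 34139101). Other starts of H2-DMa were not examined, so the missing match does not show that the gene lacks the motif. GCAAC on either strand was in the windows of 5 of the 7 members and in 29.9% of all promoters. GCAAC followed by TGATTGG within 40 bases was in 4 of the 7 members (H2-Aa, H2-Eb1, H2-Oa and H2-Ob) and in 0.307% of all promoters, with 28 to 31 bases between the starts of the 2 motifs and so no overlap. In these members TGATTGG began 45 to 61 bases before the start, and it began 63 bases before it in H2-DMb1 and 92 in H2-DMb2. These are matches of letters and not measured sites. The H2-Eb1 window also overlaps an exon of the antisense gene Gm20513.

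Total counts ranged from 13524899 to 17898672 per tumor. Levels are given as FPKM where genes are compared, since these are per length, and as CPM, the read counts relative to the library size after TMM normalization, where tumors are compared. The 10 members together took 0.136 to 0.356% of all counts in the control tumors and 0.0909 to 0.525% in the cryoablation tumors. A group of 5 tumors stood apart in a measure of the whole library, taken over all genes tested but the members. It is the median log2 deviation of genes above the 75th percentile of listed length minus that of genes below the 25th. This length index was -0.77 in cryoablation replicate 2, -0.63 in replicate 4 and -1.03 in replicate 5. It was -0.42 in control replicate 1 and -0.46 in control replicate 5, and between -0.06 and 0.63 in the other 12 tumors. The fold changes of the members and the ratios are also given without them. Of the markers set for MC38 and colon epithelium, Cdx2 had 0 counts in all 17 tumors, Vil1 had at most 11 counts, and Krt8 ranged from 0 to 609 counts.

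The class II genes were ordered by level in nearly the same way in every tumor. Cd74, the invariant chain, was the most abundant, with a median of 490 FPKM over the 17 tumors (range 193 to 1165). H2-Eb1 followed at 233 FPKM (81.2 to 573), H2-Ab1 at 162 FPKM (63.4 to 315) and H2-Aa at 133 FPKM (46.2 to 279). Cd74 exceeded H2-Eb1, and H2-Eb1 exceeded H2-Ab1, in 17 of 17 tumors, while H2-Ab1 exceeded H2-Aa in 16 of 17. The order of the last 2 rests on the listed lengths, 3798 bases for H2-Aa and 2568 for H2-Ab1. By CPM, which is not scaled to length, H2-Aa was the higher on average. The mean log2 ratio of H2-Aa to H2-Ab1 was 0.16 in control and 0.26 in cryoablation tumors. The DM genes lay below the chains, with medians of 53.9 FPKM for H2-DMb1, 19.4 FPKM for H2-DMa and 2.75 FPKM for H2-DMb2. Ciita had a median of 1.99 FPKM (1.11 to 4.65), below that of Cd74, the chains, H2-DMb1 and H2-DMa. It could not be set apart from H2-DMb2, which was the higher in 10 of 17 tumors. The DO genes were the lowest, H2-Ob at 0.266 FPKM and H2-Oa at 0.253 FPKM, and neither was clearly above the other (H2-Ob higher in 10 of 17 tumors). That comparison also rests on the listed lengths, 5380 bases for H2-Ob and 1407 for H2-Oa. Ciita exceeded H2-Ob in 17 of 17 tumors.

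**Figure D1:**
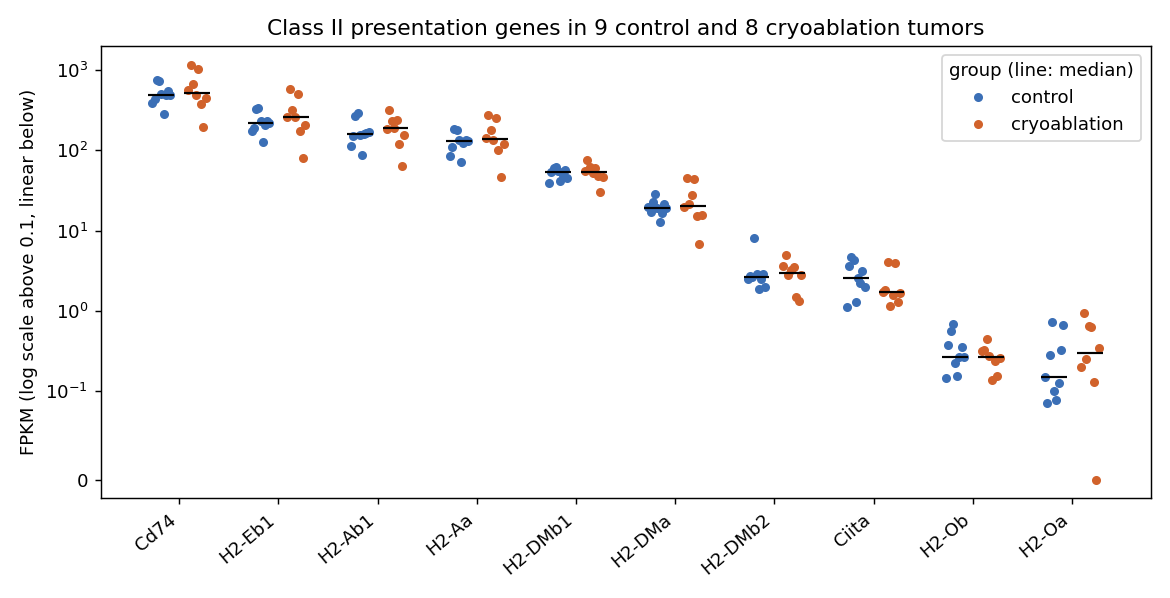
FPKM of each member in each tumor, on an axis that is logarithmic above 0.1 and linear below, with blue points for the 9 control tumors, orange points for the 8 cryoablation tumors and a line at each median. From Cd74 at a median of 490 FPKM to H2-Oa at 0.253 FPKM the 2 groups overlap for every member.

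The I-A chains are the partners of the only class II molecule these mice make. H2-Aa (ENSMUSG00000036594, chromosome 17, 34501718 to 34506797), the I-A alpha chain, had a lowest, median and highest value of 253, 473 and 646 CPM in the control group and 167, 550 and 1265 CPM in the cryoablation group. H2-Ab1 (ENSMUSG00000073421, chromosome 17, 34476663 to 34488393), the I-A beta chain, had 212, 391 and 708 CPM in the control group and 155, 506 and 947 CPM in the cryoablation group. The cryoablation group held both the highest values of the series, in replicates 2 and 5, and the lowest, in replicate 7, and the control values lay between them. H2-Eb1 (ENSMUSG00000060586, chromosome 17, 34524841 to 34535648), the I-E beta chain, had 230, 406 and 632 CPM in the control group and 150, 526.1 and 1302 CPM in the cryoablation group. H2-Ea (ENSMUSG00000036322), the gene of its alpha partner, had 0 counts in all 17 tumors. A count of 0 allows up to 3 counts, or 0.168 to 0.222 CPM of the totals, and covers counting error only. H2-Eb2, a further beta chain gene of the locus, had 0 to 15 counts per tumor.

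The log2 fold change from control to cryoablation was 0.47 for H2-Aa (standard error 0.31, 95% interval -0.18 to 1.12), and 5 of 8 tumors exceeded the median of the controls. It was 0.28 for H2-Ab1 (standard error 0.29, interval -0.33 to 0.90) and 0.57 for H2-Eb1 (standard error 0.33, interval -0.13 to 1.26). These 3 differences were within the spread between tumors (edgeR adjusted p = 0.728, 0.770 and 0.728; exact permutation p = 0.451, 0.600 and 0.402). Without the 5 tumors of low length index the values turned to -0.15 for H2-Aa, -0.25 for H2-Ab1 and -0.15 for H2-Eb1.

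Cd74 (ENSMUSG00000024610, chromosome 18) had a lowest, median and highest value of 452, 787 and 1176 CPM in the control group and 308, 916 and 2288 CPM in the cryoablation group. Cryoablation replicate 2 and replicate 5 were again the highest, at 2288 and 2280.4 CPM, and replicate 7 the lowest. The log2 fold change was 0.45 (standard error 0.32, interval -0.22 to 1.11; edgeR adjusted p = 0.734; exact permutation p = 0.530). It was -0.22 without the 5 tumors of low length index and 0.07 under limma's voom.

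Ciita (ENSMUSG00000022504, chromosome 16, 10297923 to 10346282) was the member whose fitted change was lowest. Its lowest, median and highest values were 11.3, 23.1 and 40.2 CPM in the control group and 11.7, 17.6 and 35.3 CPM in the cryoablation group, and in the cryoablation group 2 of 8 tumors exceeded the median of the controls. The log2 fold change was -0.28 (standard error 0.28, interval -0.87 to 0.32; edgeR adjusted p = 0.769; exact permutation p = 0.387). Ciita kept a value below 0 in all 26 alternatives. These included the 12 tumors without low length index (-0.33) and the offset for each tumor's trend over gene length (-0.15). In bulk tumor RNA, fewer cells that express a gene and less RNA per cell cannot be told apart.

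The peptide editor DM is a pair of H2-DMa with one of 2 beta chains. H2-DMa (ENSMUSG00000037649, chromosome 17, 34338515 to 34358075) had 41.2, 69.3 and 94.0 CPM in the control group (lowest, median and highest) and 22.2, 66.1 and 200.01 CPM in the cryoablation group. Its medians were nearly level, and the upper cryoablation values came from replicates 2 and 5. The log2 fold change was 0.50 (standard error 0.33, interval -0.19 to 1.19; edgeR adjusted p = 0.728; exact permutation p = 0.560), although only 3 of 8 cryoablation tumors exceeded the control median. It turned to -0.04 under limma's voom, which weights each tumor by its fit, and to -0.31 without the 5 tumors. H2-DMb1 (ENSMUSG00000079547, chromosome 17, 34372046 to 34379204) varied least of the members, with 66.2, 85.8 and 101 CPM in the control group and 48.6, 92.9 and 147 CPM in the cryoablation group. The change was 0.19 on the log2 scale (standard error 0.17, interval -0.17 to 0.54; edgeR adjusted p = 0.756) and turned to -0.01 with the length offset.

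H2-DMb2 (ENSMUSG00000037548, chromosome 17, 34362281 to 34370529) encodes the other beta chain and lies beside H2-DMb1. It had 3.05, 4.45 and 13.6 CPM in the control group and 2.17, 5.43 and 10.2 CPM in the cryoablation group. The highest of all was control replicate 4 at 13.6 CPM, and the other control tumors lay between 3.05 and 5.36 CPM. In that tumor the summed level of the 5 B cell markers was 10.4 CPM, against a control median of 2.38 CPM and a cryoablation range of 0.298 to 5.02 CPM. Control replicate 4 also held the highest summed level of the dendritic cell (118 CPM), T cell (60.8 CPM), CD45 (209 CPM), fibroblast (3824 CPM) and endothelium (134 CPM) markers. The part of these cells in the value was not tested. The log2 fold change of H2-DMb2 was 0.07 (standard error 0.33, interval -0.62 to 0.76; edgeR adjusted p = 0.935), or 0.38 without control replicate 4. Of the 50-base words of the longest H2-DMb1 transcript (GENCODE M21), 26.6% also occur in that of H2-DMb2, so reads could have been split between the copies and the split is uncertain.

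DO, the inhibitor of DM, is made mainly by B cells and some dendritic cells. H2-Ob (ENSMUSG00000041538, chromosome 17, 34457877 to 34473388), its beta chain, had 0.777, 1.37 and 3.56 CPM in the control group and 0.783, 1.4998 and 2.18 CPM in the cryoablation group. The change was -0.23 on the log2 scale (standard error 0.30, interval -0.87 to 0.41; edgeR adjusted p = 0.799), although 5 of 8 cryoablation tumors exceeded the control median. It was -0.04 without control replicate 4 and -0.34 without cryoablation replicate 3. H2-Oa (ENSMUSG00000024334, chromosome 17, 34311314 to 34314208), its alpha chain, was the only member that missed the filter on low counts. It had 0 to 18 counts per tumor, with 0 counts in cryoablation replicate 7 and 18 in replicate 2. Its lowest, median and highest values were 0.116, 0.224 and 0.971 CPM in the control group and 0, 0.402 and 1.55 CPM in the cryoablation group (exact permutation p = 0.453).

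**Figure D2:**
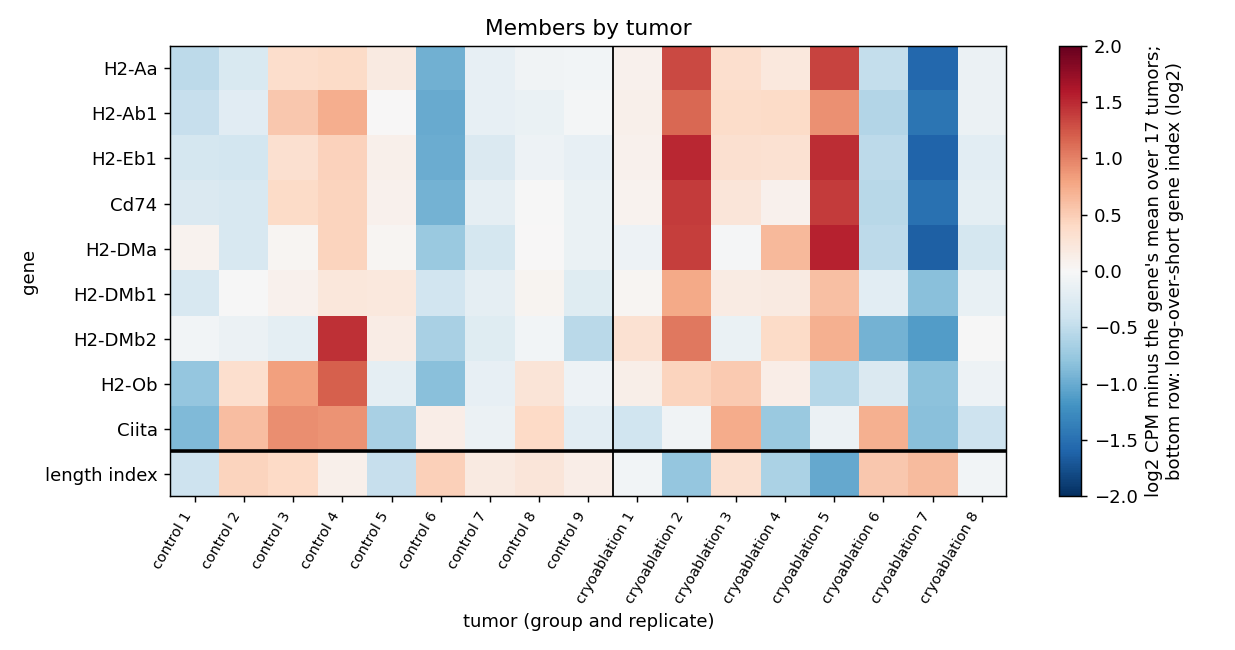
Log2 CPM of each tested member minus its own mean over the 17 tumors, with tumors in columns by group and replicate and, in the bottom row, the length index (log2) of each library. Cryoablation replicates 2 and 5 are the highest and replicate 7 the lowest for Cd74 and the chains, and the 2 high tumors have the lowest length index (-0.77 and -1.03). Replicate 7 has the highest length index (0.63).

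Of the 9 members tested, 0 had an unadjusted edgeR p under 0.05, against 4.91% of all 13005 genes, and 0 passed the study's threshold of an absolute log2 fold change over 1 with that p, against 0.492% of all genes. With Benjamini-Hochberg adjustment 0 members and 0.0% of all genes passed (639 genes had an unadjusted p under 0.05). The lowest adjusted p of any gene was 0.728. DESeq2 also gave 0 members an unadjusted p under 0.05 (6.77% of all genes), as did limma's voom (10.1%), the replicate block (3.39%), the length offset (5.44%) and both together (4.53%). The fitted value was above 0 for 7 of 9 members and for 48.0% of all genes. Their median was 0.28, beside -0.01 over all genes tested. The groups overlapped for all 10 members. Leaving out cryoablation replicate 7, the tumor with the lowest levels of Cd74, the chains and DM, gave 4 of 9 members an unadjusted p under 0.05 (Cd74, H2-Aa, H2-DMa and H2-Eb1), where 10.1% of all genes had one. That tumor also had the highest length index of the 17 (0.63). Across the 17 tumors Pearson's r with the index was -0.63 to -0.84 for Cd74, the chains and the DM genes. It was 0.47 for Ciita and 0.06 for H2-Ob. Without the 5 tumors of low length index, by contrast, 0 of 9 members were called (4.26% of all genes), 0 lay above 0 and their median was -0.25. The sign of the class II differences, apart from those of Ciita and H2-Ob, thus depended on which tumors were included. The difference of H2-Ob came to -0.04 without control replicate 4.

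Cryoablation replicates 2, 5 and 7 also differed in markers of other cells. The summed level of all 8 macrophage markers ranged from 979 to 2705 CPM in the control group and from 735 to 3522 CPM in the cryoablation group. It was lowest in replicate 7 and highest in replicate 5 (3522 CPM) and replicate 2 (3107 CPM). Much of that sum came from the complement genes C1qa, C1qb and C1qc, which reached 1258, 1129 and 547 CPM in the cryoablation group. The markers did not move as one, as the highest values of Adgre1 (239 CPM), Csf1r (279 CPM) and Mrc1 (368 CPM) were in control tumors. The 7 dendritic cell markers summed to 36.3 to 118 CPM in the control group and 31.2 to 80.3 CPM in the cryoablation group, and replicate 7 was again the lowest. The 4 T cell markers summed to 10.3 to 60.8 CPM in the control group. They were at 38.5 CPM in replicate 2, 33.8 CPM in replicate 5 and 9.94 CPM in replicate 7, the lowest of all tumors. No marker of these lists was at 0 in all tumors. The summed MC38 and colon epithelium markers were likewise highest in replicate 5 (122.5 CPM) and replicate 2 (88.1 CPM) and lowest in replicate 7 (9.94 CPM). Ptprc, the gene of CD45, ran the other way, at 29.6 CPM in replicate 5, 43.5 CPM in replicate 2 and 62.4 CPM in replicate 7. Replicates 5 and 2 had the lowest length index and replicate 7 the highest. Ptprc is listed at 18313 bases and had r = 0.69 with that index. C1qa, C1qb, Krt8 and Krt18 are listed at 1040, 1088, 1958 and 1437 bases. The part of gene length in these marker levels was not tested, nor was the part of the marked cells in the class II values. Among the 32 tested markers of all 9 lists, which also covered B cells, T cells, lymph node, CD45, fibroblasts, endothelium and colon epithelium, 1 had an unadjusted p under 0.05, beside 4.91% of all genes. It was Adgre1, the macrophage marker F4/80, which differed by -0.69 on the log2 scale (standard error 0.29; exact permutation p = 0.0465; edgeR adjusted p = 0.728). Its median was 59.8 CPM in the control group, where the highest tumor reached 239 CPM, and 51.6 CPM in the cryoablation group. In the cryoablation group 7 of 8 tumors lay below the control median.

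The other genes of the pathway were counted by role in the same fit. Of 35 genes in the table, 32 passed the filter, 11 of them above 0 and 21 below, beside 48.0% of all genes above 0. An unadjusted p under 0.05 was found for 0 of the 32, beside 4.91% of all genes. Among the 7 factors of class II transcription the values ran from -0.18 (Nfya) to 0.32 (Rfxap, a subunit of RFX). Among the 7 endosomal enzymes they ran from -0.18 for Ctss, the cathepsin that trims the invariant chain, to 0.69 for Ctsd, an aspartic protease. The 9 genes of interferon-gamma signaling lay between -0.34 for Ifng and 0.08 for Ifngr2, 7 of them below 0. The ubiquitin ligases of class II turnover were at -0.35 for Marchf1 and -0.32 for Marchf8, and Cd83, which opposes Marchf1, was at 0.40. With 1 tumor left out, Marchf1 ranged from -0.49 (without cryoablation replicate 3) to -0.14 (without control replicate 4). Of the 6 genes tested on the side of CD4 T cells, 5 were below 0, with Cd4 at -0.38 and Lag3, an inhibitory receptor for class II, at 0.16. Jak1, a kinase of the interferon receptors, was at -0.17. The standard errors were 0.37 for Ctsd, 0.18 for Rfxap, 0.25 for Cd83, 0.28 for Marchf1, 0.21 for Marchf8 and 0.13 for Jak1. Of these genes, those above 0 are listed at 2351 (Ctsd), 2242 (Rfxap) and 2572 bases (Cd83). Those below 0 are listed at 7146 (Marchf1), 9634 (Marchf8) and 7227 bases (Jak1). The part of gene length in these directions was not tested. Without the 5 tumors of low length index, Cd3e, Ctss, Ifng, Rfxap and Socs1 had an unadjusted p under 0.05, 5 of 32 genes beside 4.26% of all genes. Limma's voom gave 5 of 32 as well (Cd3e, Cd83, Ifng, Rfxap and Socs1), beside 10.1% of all genes. The count was 2 of 32 without cryoablation replicate 3 (Ctsd and Rfxap, with 10.6% of all genes). It was 1 of 32 without control replicate 1 (Rfxap, 9.89% of all genes), control replicate 4 (Cd83, 2.79%), cryoablation replicate 6 (Ctsd, 9.95%) or cryoablation replicate 7 (Ctsd, 10.1%).

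**Figure D3:**
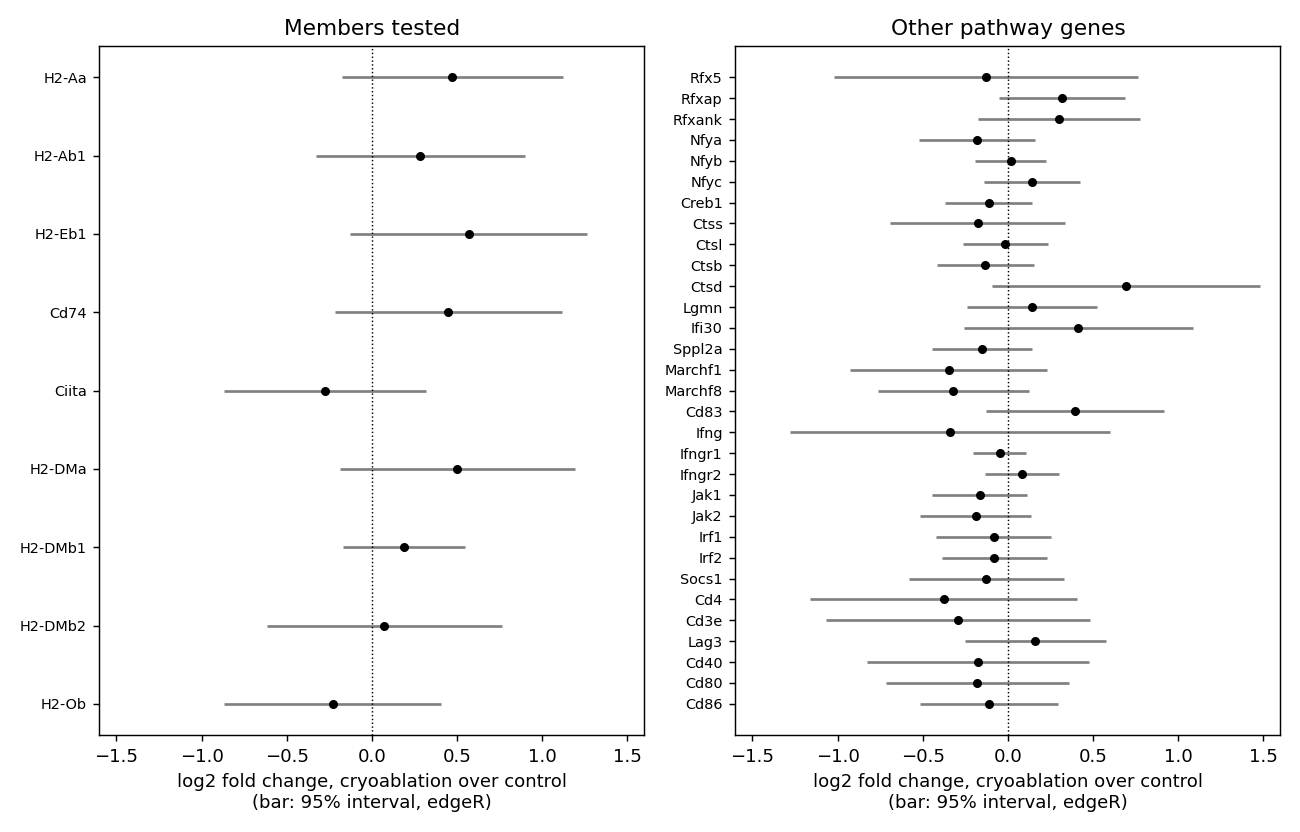
Log2 fold change of the cryoablation over the control group with its 95% interval from edgeR, for the 9 members tested (left) and the other pathway genes tested, all but 1 of them (right). Each interval shown spans 0, from H2-Eb1 (-0.13 to 1.26) to Ciita (-0.87 to 0.32).

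The ratios among Cd74, H2-Ab1 and H2-Aa spread over a narrower range than the levels themselves. The log2 ratio of H2-Aa to H2-Ab1, the I-A pair, was 0.16 ± 0.15 (SD, n = 9) in the control group and 0.26 ± 0.19 (SD, n = 8) in the cryoablation group (exact permutation p = 0.269, adjusted p = 0.485). That of Cd74 to H2-Ab1 was 0.99 ± 0.15 and 1.04 ± 0.24 (exact permutation p = 0.609, adjusted p = 0.774). The ratio of H2-DMa to H2-Ab1 was -2.65 ± 0.31 and -2.61 ± 0.34. H2-Eb1 over H2-Ab1 was higher than the control median in 7 of 8 cryoablation tumors, with a difference of 0.15 (exact permutation p = 0.157, adjusted p = 0.485). The ratio of Ciita to H2-Ab1 had a far wider spread, -4.13 ± 0.59 and -4.57 ± 0.92, and differed by -0.44 (exact permutation p = 0.245). Its lowest values were -5.56, -5.46 and -5.37 in cryoablation replicates 2, 4 and 5, followed by -5.00 in control replicate 5. Against Csf1r, the macrophage growth factor receptor, Cd74 differed by 0.44 (exact permutation p = 0.101), with 6 of 8 tumors above the control median. Against Ptprc, which encodes the leukocyte antigen CD45, the difference was 0.64 (exact permutation p = 0.247), or 0.32 when cryoablation replicate 5 was left out and 0.88 when replicate 7 was. Without the 5 tumors of low length index the differences were 0.17 against Ptprc, 0.10 against Csf1r and -0.13 for Ciita over H2-Ab1. Over all 9 ratios tested, 0 had an adjusted p under 0.05.

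Across the 17 tumors, Cd74 varied together with the chains and with DM. On the log2 CPM scale Pearson's r was 0.995 with H2-Eb1 (Spearman's rho 0.998), 0.99 with H2-Aa (rho 0.99) and 0.96 with H2-Ab1 (rho 0.98), each with the smallest permutation p that 100000 resamples can give (1e-05; adjusted 3.6e-05 over 18 relations). It was 0.95 with H2-DMa (rho 0.86), 0.96 with H2-DMb1 (rho 0.92) and 0.81 with H2-DMb2 (rho 0.75; permutation p = 0.00018 for r). Without cryoablation replicates 7 and 2, the tumors farthest from the median of Cd74, r was 0.99, 0.98 and 0.93 for the 3 chains and 0.90, 0.91 and 0.69 for the DM genes. Within the control group r was at least 0.97 for the chains and within the cryoablation group also at least 0.97. For H2-DMa, H2-DMb1 and H2-DMb2 it was 0.88, 0.82 and 0.66 within the control group. Within the cryoablation group it was 0.97, 0.99 and 0.92 for these genes. The genes share libraries, depth and normalization.

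For Ciita, in contrast, the correlation with Cd74 did not pass the test on the log2 CPM scale. Pearson's r was 0.20 (permutation p = 0.436, adjusted p = 0.462) and rho 0.28 (p = 0.277), with 0.38 within the control group, 0.22 within the cryoablation group and 0.06 without the 2 farthest tumors. The 5 tumors of low length index had 11.3 to 20.0 CPM of Ciita, against a median of 25.5 CPM in the other 12, and 705 to 2288 CPM of Cd74, against a median of 775 CPM. Among the other 12 tumors r was 0.58. The listed length is 9535 bases for Ciita and 1679 for Cd74. After each tumor's trend over gene length had been removed, an alternative chosen after the data were seen, r was 0.71 over all 17 tumors (permutation adjusted p = 0.00258), 0.77 within the control group and 0.74 within the cryoablation group. The correlations of Cd74 with the chains were then 0.92 to 0.98. Those with the DM genes fell to 0.81 for H2-DMa (rho 0.60), 0.74 for H2-DMb1 and 0.64 for H2-DMb2. Without cryoablation replicates 7 and 2 they were 0.61, 0.59 and 0.47. In Ptprc, listed at 18313 bases, the same step changed r with Cd74 from -0.14 to 0.37.

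**Figure D4:**
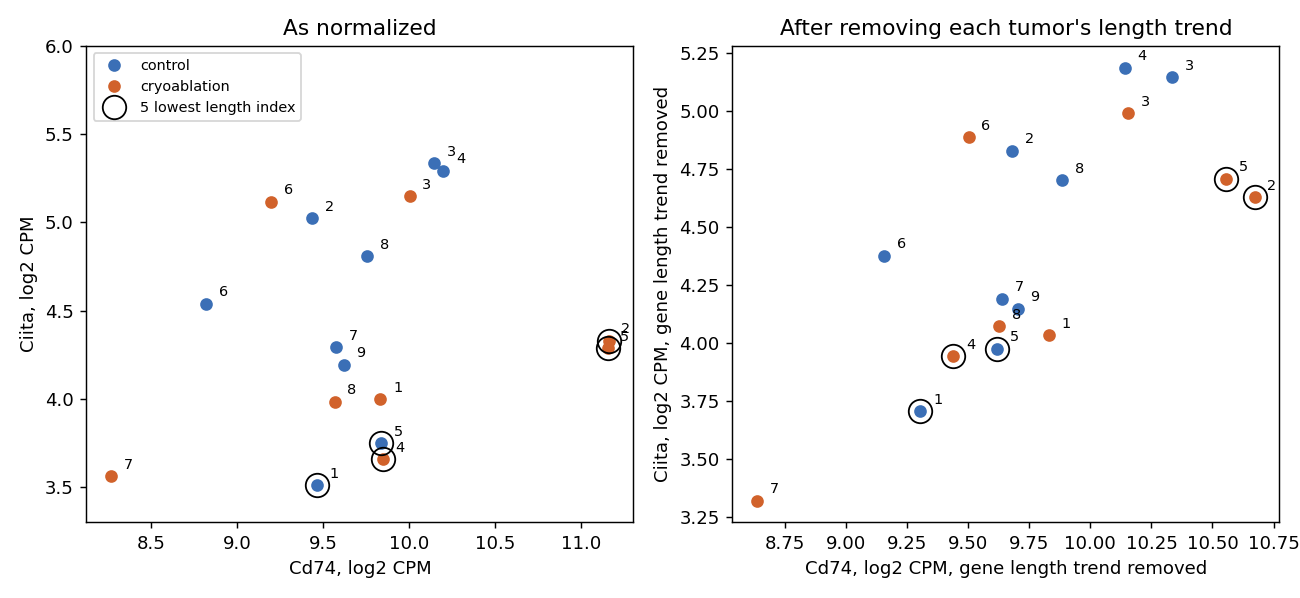
Ciita against Cd74 in the 17 tumors (blue control, orange cryoablation, numbers are replicates, rings mark the 5 tumors of lowest length index), in log2 CPM on the left and after removal of each tumor's gene length trend on the right. Pearson's r is 0.20 on the left and 0.71 on the right, where the ringed tumors lie closer to the others.

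Interferon-gamma and macrophage genes varied with Cd74 less tightly. Pearson's r was 0.66 for Ifng (rho 0.65; permutation p = 0.00384, adjusted p = 0.00864) and 0.65 for Csf1r (rho 0.66; adjusted p = 0.0115). Without the 2 farthest tumors, cryoablation replicates 7 and 2, r was 0.39 and 0.56. On variance-stabilized values the 2 farthest were replicates 7 and 5, and without them r was 0.68 for Ifng and 0.49 for Csf1r. The size of both relations thus depended on which tumors were left out. After removal of the length trend r was 0.49 for Ifng (adjusted p = 0.0542), 0.84 for Csf1r (adjusted p = 0.000127), 0.70 for Itgax, 0.71 for Cd4 and 0.61 for H2-K1 (rho 0.43, adjusted p = 0.0928). Among the 12 tumors without low length index r was 0.69 for Ifng, 0.87 for Csf1r, 0.86 for Itgax, 0.84 for Cd4, 0.73 for Adgre1 and 0.55 for H2-K1. For the class I heavy chain gene H2-K1, r was 0.82 (rho 0.55; adjusted p = 0.000617), at 0.38 within the control group and 0.96 within the cryoablation group. For Itgax and Cd4, r was 0.59 and 0.56 (rho 0.62 for both, adjusted p = 0.0207 and 0.0271), and 0.33 and 0.48 without cryoablation replicates 7 and 2. For Adgre1 r was 0.31 and for Zbtb46, a transcription factor of conventional dendritic cells, -0.22 (adjusted p = 0.257 and 0.444). H2-Ob gave r = 0.49 (adjusted p = 0.0575) and rho = 0.63 (adjusted p = 0.0127), with 0.90 among the 12 tumors without low length index. Cd79a, a B cell marker too low for the filter, gave r = 0.52 (adjusted p = 0.0555) and rho = 0.70 (adjusted p = 0.00645).

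The genes whose pattern over the 17 tumors was most like the mean standardized log2 CPM of the 9 tested members were drawn from 12958 candidates. They were Selplg (r = 0.94), the selectin ligand of leukocytes, Fcgr4 (0.93), an activating Fc receptor, Clec12a (0.93), a myeloid lectin, Pld4 (0.93), an endosomal nuclease, and Cd48 (0.93), a leukocyte adhesion molecule. Ncf4 (0.93), a subunit of the phagocyte oxidase, Thy1 (0.93), a T cell surface protein, Gm2a (0.92), a lysosomal lipid-binding protein, Cd2 (0.92), a T cell adhesion molecule, and Pilra (0.91), a myeloid inhibitory receptor, followed. Their log2 fold changes between the groups ran from -0.05 for Selplg to 0.27 for Clec12a. They were chosen by these correlations, so no test is given.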

How the data were processed

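RNA of 9 control and 8 cryoablation distant MC38 tumors was sequenced on a NovaSeq platform after bead isolation of mRNA. The authors deposited 1 table with a whole-number read count and an FPKM for each gene and tumor; 0 columns were unmapped. The deposited FPKM are scaled to the length listed for each gene and to the total count of the tumor. Aligner, counting program and strandedness are not given in the sources used here. The labels name GRCm38 and mm10, but the listed positions equal those of GENCODE M21 (GRCm38) for 512 of 21827 shared genes, so positions are printed as listed, with no build. Antisense or overlapping genes lie on H2-Eb1, H2-Oa, H2-DMa, Cd74 and Ciita, whose reads cannot be told apart from theirs without strand.

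The main test was edgeR 4.0.16 (R 4.3.3) with TMM, filterByExpr and the quasi-likelihood F test on all 13005 genes that passed, group as the only term, with Benjamini-Hochberg adjustment. Standard errors are the log2 fold change over the square root of F. Exact permutation tests were two-sided, over all 24310 splits of log2 CPM (prior count 2), with 4.11e-05 as the smallest p. Correlations used 100000 permutations. Alternatives were DESeq2 1.42.0, limma 3.58.1 voom with quality weights, other normalization and filters, a replicate block, an offset for gene length (natural splines, 4 degrees of freedom) and each tumor left out. The test scripts were tested on simulated counts. Members, gene lists and tests were chosen with earlier results of these data known. The named genes are all members, the 3 pathway genes of smallest p in each direction and the 10 genes most like the members with a mean of at least 10 counts. Further genes named for their role, the extremes of each role and those with a p under 0.05 in an alternative were chosen after their values were seen. The values of 1 pathway gene, which is included in the counts, are not reported here. No 2 tumors of the same group had counts that agreed within sampling noise (64 pairs). Pairs across the groups were not examined.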

Additional observations from a re-analysis of the deposited data

Results flagged for a closer look

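H2-DMb2 in control replicate 4 was at 13.6 CPM, while the other control tumors lay between 3.05 and 5.36 CPM. Its gap to the nearest tumor was 0.626 of the range of the group on the log2 CPM scale, above Dixon's critical value of 0.493 for 9 samples. Over the 20 sets of values examined (10 members in 2 groups) this was the only such tumor, and chance flags about 5% of sets.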

How the results depend on the processing

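Adjusted calls stayed at 0 for members, pathway genes and ratios in every alternative, tumors left out included. Members with an unadjusted p under 0.05 ranged from 0 to 4 when 1 tumor was left out (4 without cryoablation replicate 7) and pathway genes from 0 to 2, and the median of the members from 0.10 to 0.41. From 0 pathway genes, limma voom gave 5, the replicate block 1 (Rfxap), the length offset with the block 2 (Ifng and Rfxap) and the omission of the 5 tumors of lowest length index, chosen after the data were seen, 5. That omission turned H2-Aa to -0.15, H2-Ab1 to -0.25, H2-Eb1 to -0.15, Cd74 to -0.22, H2-DMa to -0.31, H2-DMb1 to -0.10, H2-DMb2 to -0.41 and Ctsd to -0.34, and the ratios of H2-DMa to H2-Ab1 to -0.079 and of H2-Oa to H2-DMa to -0.12. Voom turned H2-DMa to -0.041 and Ctsd to -0.037. The length offset turned H2-DMb1 to -0.0085 and H2-DMb2 to -0.13, and with the block to -0.034 and -0.13. The replicate block alone turned H2-DMb2 to -0.0045. Replicate numbers are not a pairing in the design. Same-numbered tumors correlated from -0.51 to 0.64, and 2 of 8 pairs correlated best with their own number. Removal of the length trend, also chosen after the data were seen, turned the ratio of Cd74 to H2-Ab1 to -0.036 and r of Cd74 to 0.37 with Ptprc and 0.40 with Zbtb46. With 1 tumor left out, H2-DMb2 ranged from -0.11 (without cryoablation replicate 2) to 0.38 (without control replicate 4), the ratio of Cd74 to H2-Ab1 from -0.014 to 0.097, of H2-DMa to H2-Ab1 from -0.040 to 0.12, and of H2-DMb1 to H2-DMb2 from -0.081 to 0.12. The causes were not tested. DESeq2, upper-quartile normalization, other filters, another prior count and variance-stabilized values changed no direction or call. H2-Oa and H2-Ob rest on the fewest counts of the members.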
